A study of Mus musculus with 9 samples.

Results

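Genes of the Hes and Hey family and the feedback gene Nrarp were followed here, 8 in all: Hes1, Hes5, Hes6, Hes7, Hey1, Hey2, Heyl and Nrarp. Most of them are commonly read as Notch targets, while Hes6 is known as a relative that acts downstream of proneural factors and is not induced by Notch. They were chosen by name, and every probe set that the platform annotation gives to exactly 1 of these symbols was taken, which gave 13 of 22626 tested probe sets for 8 of 12393 genes. Total RNA of whole mouse embryos, labelled as 9.5 days post coitum (dpc), had been hybridised to 9 Affymetrix arrays in 5 genotypes. There were 2 arrays of embryos homozygous for the Notch1tm1Con allele (Notch1tm1Con/tm1Con, Notch1 null), 1 of a Notch1tm1Con/+ embryo sample (Notch1 het), 2 of Dll3neo/neo embryos (Dll3 null), 2 of Dll3neo/+ embryos (Dll3 het) and 2 of wild type embryos (+/+). The genotype labels name no tissue-restricted driver, they name a C57BL/6J background for 1 Notch1 null array, and they give an age but no somite number. They do not say whether an array holds 1 embryo or several, or whether replicates come from separate litters, and every p-value therefore covers no more than the differences between arrays at hand.

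Notch is a receptor at the cell surface. When a ligand of the Delta or Jagged family on a neighbouring cell binds it, the intracellular part is cut free, enters the nucleus and joins the DNA-binding protein RBPJ to switch on genes, among them several of the Hes and Hey family and Nrarp. Hes and Hey proteins are basic helix-loop-helix repressors: in the neural tube they hold back proneural genes and keep progenitors undifferentiated, in the presomitic mesoderm some of them cycle with the segmentation clock, and in vessels and heart the Hey genes act downstream of Notch. Nrarp feeds back on the pathway by destabilising the freed Notch fragment. Dll3, unlike other Delta proteins, is known mainly for its need in somite formation.

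Each deposited value is a linear ratio, the signal of a probe set divided by a number of its own, so that values can be set against each other between arrays but not between probe sets or genes. The ratios hold no absolute level, so whether a transcript or a tissue marker was detected was not measured. Correlations between replicate arrays over all tested probe sets were 0.804 in Notch1 null, 0.651 in Dll3 null, 0.673 in Dll3 het and 0.765 in wild type. A control RNA added to the samples, dap, gave ratios of 5.18 and 2.38 in Notch1 null, 1 in Notch1 het, between 0.293 and 0.349 in the 4 Dll3 arrays, and 6.51 and 9.21 in wild type, so wild type was highest and the 4 Dll3 arrays lowest. The further controls thr, phe and lys were also highest in the 2 wild type arrays. The control cre was not: it read 0.948 and 1.226 in wild type, and between 0.8365 and 1.122 in the other arrays. The expression of sex-linked genes was female in replicate 1 of the 4 groups with a targeted allele and male in the other 5 arrays. Notch1 itself read 1.47 and 1.69 at probe set 1418633_at in Notch1 null, against 0.916 and 1.01 in wild type, and Dll3 read 0.804 and 0.933 at 1449236_at in Dll3 null, against 1.09 and 1.00 in wild type; where these probes lie relative to the targeted changes is not given, so they check no label.

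Loss of Notch1 went with lower signal of Hes5, Hes6, Nrarp and 1 of 3 Heyl probe sets. Against wild type, 7 of 13 member probe sets of 4 genes fell in Notch1 null embryos and 0 rose (limma, Benjamini-Hochberg adjusted p under 0.05 over all tested probe sets, the rule for every change named here), where 5.99% of all probe sets fell and 3.46% rose. In 10 of 13 both Notch1 null arrays lay below both wild type arrays, where 34.0% of all probe sets did so. The median log2 difference of the members was -0.59, and that of all probe sets was -0.03. Hes1, Hes7, Hey1 and Hey2 had no probe set that passed. The dap control was likewise lower in Notch1 null, at 5.18 and 2.38, against 6.51 and 9.21 in wild type, and its part in these falls was not tested. In whole embryos, fewer cells that express a gene and less of its RNA per cell cannot be told apart, here and in every result that follows.

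**Figure D1:**
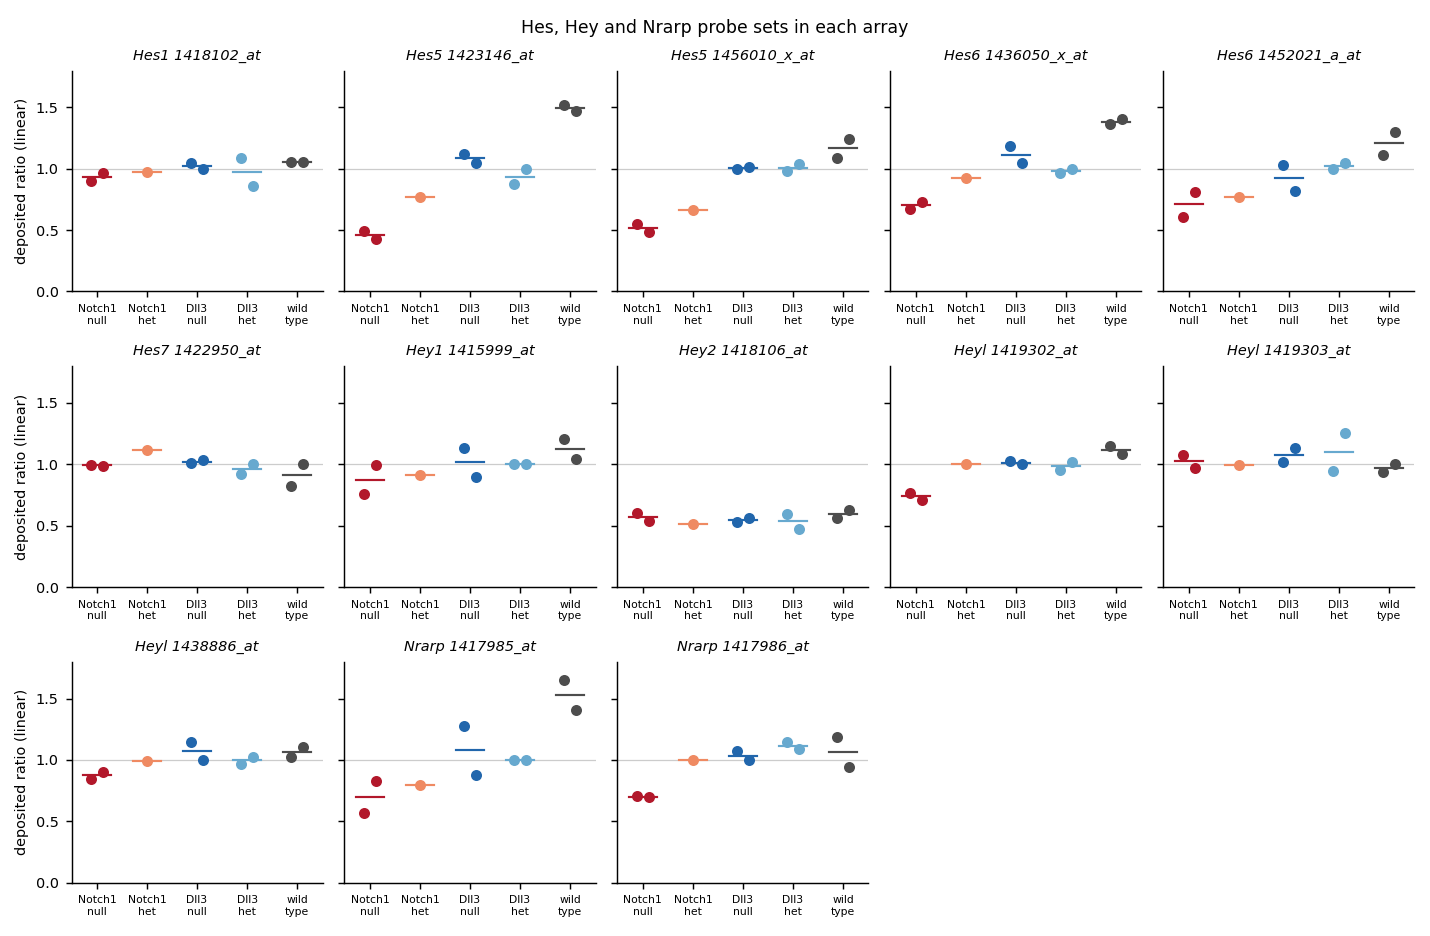
The deposited ratio (vertical axis, linear, from 0) of each of the 13 probe sets in each array, by genotype, with points for arrays and bars for group means. Both Hes5 probe sets and both Hes6 probe sets are lowest in the Notch1 arrays and highest in wild type, while Hes1, Hes7 and Hey2 stay nearly level across genotypes.

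Hes5, a Notch-driven repressor best known from neural progenitors, moved most. At probe set 1423146_at its ratio was 0.493 and 0.428 in the Notch1 null arrays, 0.772 in the Notch1 het array, 1.12 and 1.05 in the Dll3 null arrays, 0.873 and 1.00 in the Dll3 het arrays, and 1.52 and 1.47 in the wild type arrays. The Notch1 null and wild type arrays did not overlap, and no other array came as low as the Notch1 nulls or as high as wild type. Notch1 null lay below wild type by a log2 difference of -1.70 ± 0.12 (SE), a 3.26-fold lower ratio with an adjusted p of 0.000375 by limma, which ranks 9th from the lowest difference and 6th by p among all 22626 probe sets. The second probe set, 1456010_x_at, whose name marks probes that may also match other transcripts, read 0.553 and 0.485 in Notch1 null and 1.09 and 1.25 in wild type. It was 2.25-fold lower in Notch1 null (log2 -1.17 ± 0.12, adjusted p = 0.00128 by limma). Group means at 1423146_at ran, from low to high, 0.4605 ± 0.0460 (SD, n = 2) in Notch1 null, 0.772 in Notch1 het (n = 1), 0.9365 ± 0.0898 in Dll3 het, 1.09 ± 0.0523 in Dll3 null and 1.496 ± 0.0318 in wild type (SD, n = 2 each). Of the neighbours in that order, Notch1 null and Notch1 het differed past the threshold, Dll3 null and Dll3 het did not (adjusted p = 0.897 by limma), nor did Dll3 null and wild type (0.236), and Notch1 het was not compared with Dll3 het. Both Hes5 calls against wild type held under all 19 alternative settings, with adjusted p up to 0.0176 and 0.0238.

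Hes6, a relative that promotes neuronal differentiation and works against Hes1 in mouse neural cells, showed the same direction with a smaller size. Its probe set 1436050_x_at read 0.676 and 0.731 in Notch1 null, 0.922 in Notch1 het, 1.19 and 1.05 in Dll3 null, 0.964 and 1.00 in Dll3 het, and 1.36 and 1.40 in wild type. Again the Notch1 null arrays were lowest and the wild type arrays highest, with no overlap. The difference between Notch1 null and wild type was -0.98 ± 0.11 on the log2 scale, 1.97-fold lower (adjusted p = 0.00194 by limma), and it held under all 19 alternatives. At 1452021_a_at the ratios were 0.609 and 0.814 in Notch1 null, 0.770 in Notch1 het, 1.03 and 0.820 in Dll3 null, 1.00 and 1.04 in Dll3 het, and 1.12 and 1.30 in wild type. The spread was wider there, and the Notch1 null and Dll3 null arrays came close to each other. This probe set was 1.71-fold lower in Notch1 null than in wild type (log2 -0.77 ± 0.16, adjusted p = 0.0201 by limma), a call that was lost without Notch1 null replicate 1 (adjusted p = 0.119), without wild type replicate 1 (0.0680) and without wild type replicate 2 (0.138), and under quantile normalization (0.0622).

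Nrarp, the small ankyrin-repeat protein of the feedback loop, has a pair of probe sets that differ in which arrays they set apart. Probe set 1417985_at read 0.569 and 0.825 in Notch1 null, 0.798 in Notch1 het, 1.28 and 0.876 in Dll3 null, 1.002 and 1.00 in Dll3 het, and 1.65 and 1.41 in wild type. Here wild type was highest, and the Notch1 null replicates differed widely. Notch1 null was 2.22-fold lower than wild type (log2 -1.15 ± 0.21, adjusted p = 0.0113 by limma). At 1417986_at the ratios were 0.708 and 0.694 in Notch1 null, 0.998 in Notch1 het, 1.07 and 1.00 in Dll3 null, 1.15 and 1.09 in Dll3 het, and 1.19 and 0.945 in wild type. Only the Notch1 null arrays were low at this probe set, and the other 7 lay between 0.945 and 1.19. The fall was 1.51-fold (log2 -0.59 ± 0.13, adjusted p = 0.0196 by limma). The first call was lost without Notch1 null replicate 1 (adjusted p = 0.07155), wild type replicate 1 (0.08525) or wild type replicate 2 (0.0616). The second was lost without Notch1 null replicate 1 (0.0836) or replicate 2 (0.126) or wild type replicate 1 (0.110), and under quantile normalization (0.05725).

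The Hey genes gave 1 change. Heyl, which marks somites and vessel walls, has 3 probe sets, of which 1 passed. At 1419302_at the ratios were 0.768 and 0.708 in Notch1 null, 0.999 in Notch1 het, 1.02 and 1.00 in Dll3 null, 0.950 and 1.02 in Dll3 het, and 1.15 and 1.08 in wild type. The Notch1 null arrays were low and the remaining arrays close together, and the difference from wild type was -0.60 ± 0.10 on the log2 scale, 1.51-fold lower (adjusted p = 0.0103 by limma). The other two gave log2 differences of -0.29 ± 0.11 at 1438886_at (adjusted p = 0.160) and 0.08 ± 0.15 at 1419303_at (adjusted p = 0.813), neither of which passed. Averaged over its probe sets, Heyl was at a log2 difference of -0.27 with an adjusted p of 0.114. The call at 1419302_at was also lost without Notch1 null replicate 2 (0.0873), wild type replicate 1 (0.0672) or wild type replicate 2 (0.05555).

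Hey1 and Hey2, repressors of the heart and arterial endothelium, have a probe set each. Hey1 read 0.759 and 0.993 in Notch1 null, 0.915 in Notch1 het, 1.13 and 0.899 in Dll3 null, 1.002 and 1.00 in Dll3 het, and 1.21 and 1.05 in wild type. Both Notch1 null arrays lay below wild type, but their own spread was wide, and the log2 difference of -0.37 (95% interval -0.73 to -0.02) did not pass (adjusted p = 0.190 by limma). Hey2 read 0.607 and 0.542 in Notch1 null, 0.516 in Notch1 het, 0.527 and 0.562 in Dll3 null, 0.594 and 0.476 in Dll3 het, and 0.562 and 0.628 in wild type. No genotype stood apart at Hey2, where the Notch1 het array lay below both wild type arrays but within the range of Dll3 het. The Notch1 null difference from wild type was -0.05 (95% interval -0.35 to 0.25, adjusted p = 0.878 by limma). It is also the 1 member probe set whose median over the arrays, 0.562, lies below 1, so it was divided by something other than its median.

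Hes1 and Hes7, both known as oscillating genes of the presomitic mesoderm, with Hes1 expressed in many other tissues besides, did not pass in any comparison. Hes1 read 0.898 and 0.969 in Notch1 null, 0.973 in Notch1 het, 1.05 and 1.00 in Dll3 null, 1.09 and 0.863 in Dll3 het, and 1.057 and 1.054 in wild type. The Notch1 null arrays lay just below wild type, by a log2 difference of -0.18 (95% interval -0.46 to 0.11, adjusted p = 0.459 by limma). Hes7 read 0.996 and 0.987 in Notch1 null, 1.12 in Notch1 het, 1.01 and 1.03 in Dll3 null, 0.921 and 1.002 in Dll3 het, and 0.823 and 1.00 in wild type. Its Notch1 null and wild type arrays overlapped, with a log2 difference of 0.13 (95% interval -0.14 to 0.40, adjusted p = 0.590 by limma). The phase of the clock was not measured in these embryos.

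**Figure D2:**
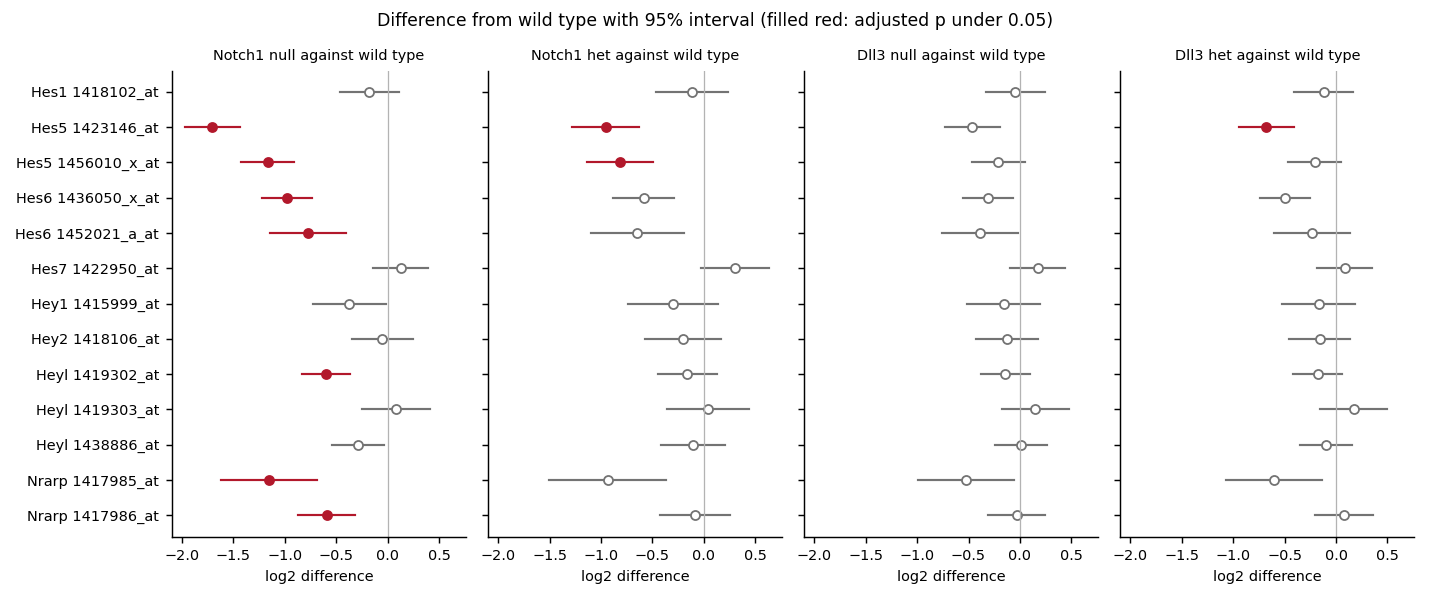
The log2 difference from wild type of each member probe set (horizontal axis) in Notch1 null, Notch1 het, Dll3 null and Dll3 het, with points for the limma estimate and lines for its 95% interval; filled red marks an adjusted p under 0.05. There are 7 red points in Notch1 null, 2 in Notch1 het, 0 in Dll3 null and 1 in Dll3 het, and all of them lie below 0.

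The windows around the transcription starts are shown because they let a reader set the probe sets that moved beside the letters that RBPJ is known to bind. RefSeq promoter windows (assembly GRCm38.p6, 250 bases before to 50 after a start) were matched for 5 of 8 members in 6 windows, with none matched here for Hes1, Hey1 and Heyl. Capitals mark TGGGAA, the core of the RBPJ site, read on either strand (TTCCCA where it lies on the other strand). All 4 windows are given 5′ to 3′ along the gene.
Hes5 chr4:154960673-154960972 (plus strand): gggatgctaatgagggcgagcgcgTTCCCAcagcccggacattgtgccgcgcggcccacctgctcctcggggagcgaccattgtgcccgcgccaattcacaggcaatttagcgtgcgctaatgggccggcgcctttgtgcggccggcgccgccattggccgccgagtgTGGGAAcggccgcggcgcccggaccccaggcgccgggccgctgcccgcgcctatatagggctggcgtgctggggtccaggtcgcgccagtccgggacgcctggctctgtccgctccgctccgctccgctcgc
Hey2 chr10:30842734-30843033 (minus strand): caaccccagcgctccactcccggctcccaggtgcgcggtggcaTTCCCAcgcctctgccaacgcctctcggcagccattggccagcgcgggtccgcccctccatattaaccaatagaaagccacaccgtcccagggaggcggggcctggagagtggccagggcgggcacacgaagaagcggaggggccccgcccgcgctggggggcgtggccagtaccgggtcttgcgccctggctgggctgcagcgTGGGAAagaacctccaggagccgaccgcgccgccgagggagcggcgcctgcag
Hes7 chr11:69120203-69120502 (plus strand): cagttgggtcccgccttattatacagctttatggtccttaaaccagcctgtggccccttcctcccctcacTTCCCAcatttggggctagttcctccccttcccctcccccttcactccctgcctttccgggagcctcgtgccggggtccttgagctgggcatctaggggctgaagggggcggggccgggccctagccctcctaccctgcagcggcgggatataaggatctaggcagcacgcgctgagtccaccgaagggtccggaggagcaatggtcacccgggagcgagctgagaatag
Nrarp chr2:25180508-25180807 (plus strand): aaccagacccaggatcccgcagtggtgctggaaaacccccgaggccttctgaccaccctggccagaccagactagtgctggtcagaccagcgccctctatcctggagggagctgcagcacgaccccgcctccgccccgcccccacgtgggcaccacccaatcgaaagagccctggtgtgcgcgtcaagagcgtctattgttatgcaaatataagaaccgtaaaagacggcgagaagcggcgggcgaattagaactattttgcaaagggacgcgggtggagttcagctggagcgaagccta

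The longer form GTGGGAA, which contains TGGGAA, was found in 6.38% of 32851 RefSeq windows of the same length on either strand, and TGGGAA in 25.6%. Hes5, the member that fell most, holds GTGGGAA at 2 places, from -226 to -220 on the opposite strand and from -83 to -77 on the gene's strand, counted from the start site. Hey2, which passed in no comparison, also holds it at 2 places, from -207 to -201 on the opposite strand and from -4 to 3 on the gene's strand. The Hes7 window holds 1, from -180 to -174 on the opposite strand. Neither the Nrarp window nor either Hes6 window holds the letters TGGGAA, although Hes6 and Nrarp fell. Among the 5 genes with a window, the letters were thus found both in a member that fell and in members that did not. Heyl, Hes1 and Hey1 had no window, and sites beyond the windows were not searched. A match is no evidence of a bound site, and whether RBPJ acts on these genes was not tested. CACGNG, which covers sites that Hes and Hey proteins are known to bind, was found in 27.5% of windows: at 2 places in Hes7, at 1 in the first Hes6 window, chr1:91413989-91414288 on the minus strand, and at 1 place in Nrarp, from -108 to -103, where it reads on both strands. The E-box CANNTG, which overlaps CACGNG where both match, occurs in 72.3% of windows and in all 6 of these.

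**Figure D3:**
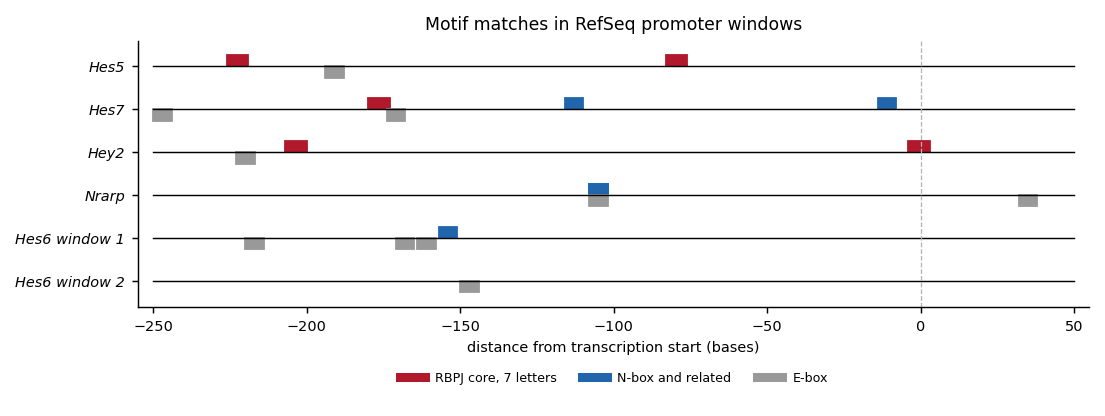
Positions of GTGGGAA (red), CACGNG (blue) and CANNTG (grey) in the 6 RefSeq windows, with the distance from the transcription start in bases on the horizontal axis and the start as a dashed line. Hes5 and Hey2 carry 2 red marks each, Hes7 carries 1, and Nrarp and both Hes6 windows carry none.

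With 1 intact Notch1 allele the same question could be asked of a single array, whose spread is taken from the other groups. Hes5 fell at both probe sets, 2 of 13 members in all, where 1.77% of all probe sets fell. The ratio at 1423146_at was 0.772 in the Notch1 het array, against 1.52 and 1.47 in wild type, a log2 difference of -0.95 ± 0.14 (adjusted p = 0.0184 by limma), and at 1456010_x_at it was 0.660 in the Notch1 het array, against 1.09 and 1.25 in wild type (-0.82 ± 0.14, adjusted p = 0.0252). Hes6 was at -0.58 and -0.64 (adjusted p = 0.0531 and 0.124) and Nrarp at -0.93 and -0.08 (adjusted p = 0.0862 and 0.838), so none of these passed. Both Hes5 calls were lost with embryo sex as a term (adjusted p = 0.0695 and 0.0901), without wild type replicate 1 (0.0810 and 0.0725) and without wild type replicate 2 (0.0902 and 0.115). Marker lists moved with Hes5 in this array: neuron probe sets fell at 5 of 19, Id at 4 of 8, neural progenitor at 2 of 18, somite at 2 of 13 and proneural at 1 of 13. The neuron genes Tubb3 (3.54-fold lower) and Stmn2 (3.36-fold) and the progenitor gene Fabp7 (2.70-fold) fell by more than Hes5, which was 1.94-fold lower at 1423146_at. The dap control was at 1 in the Notch1 het array, against 6.51 and 9.21 in wild type, and neither its part nor that of the tissue markers was tested.

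Set against the Notch1 het array, the Notch1 null arrays were lower at 1 of 13 probe sets, where 0.928% of all fell. It was again Hes5 1423146_at, with 0.493 and 0.428 in Notch1 null, against 0.772 in Notch1 het (log2 -0.75 ± 0.14, adjusted p = 0.0417 by limma). This call was lost in 14 of 18 alternatives, with adjusted p up to 0.174, and without any 1 of the 8 arrays other than Notch1 het (adjusted p between 0.05405 and 0.1695). The other Hes5 probe set differed by -0.35 (95% interval -0.67 to -0.03, adjusted p = 0.246). Hes5 1423146_at is thus ordered Notch1 null, Notch1 het, wild type, with both steps past the threshold and both steps lost in some settings.

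In Dll3 null embryos 0 of 13 member probe sets passed against wild type by limma, where 0.0707% of all probe sets fell. Unadjusted p-values were under 0.05 for 4 of 13 members, where 10.2% of all probe sets reached that in either direction: they were Hes5 1423146_at, both Hes6 probe sets and Nrarp 1417985_at. In 7 of 13 both Dll3 null arrays lay below both wild type arrays, where 19.9% of all probe sets did. Hes5 1423146_at read 1.12 and 1.05 in Dll3 null, against 1.52 and 1.47 in wild type, a log2 difference of -0.46 ± 0.12 (95% interval -0.73 to -0.20, adjusted p = 0.236 by limma). Nrarp 1417985_at was at -0.53 (95% interval -0.99 to -0.06, adjusted p = 0.435) and Hes6 at -0.31 and -0.39 (adjusted p = 0.367 and 0.470). The control RNA dap was also lower in the Dll3 arrays than in wild type, as given above, and its part in these differences was not tested.

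Dll3 het embryos gave 1 change against wild type, in Hes5 1423146_at, where 0.301% of all probe sets fell. The ratios were 0.873 and 1.00 in Dll3 het, against 1.52 and 1.47 in wild type (log2 -0.68 ± 0.12, adjusted p = 0.0491 by limma). It lay at the edge of the threshold and was lost in 14 of 18 alternatives, including the removal of any 1 of the 8 arrays other than Notch1 het, with adjusted p between 0.0503 and 0.2095. Leaving out the Notch1 het array cannot change this comparison, as a group of 1 array adds nothing to the estimated spread. The second Hes5 probe set was at -0.21 (adjusted p = 0.422 by limma) and Hes6 1436050_x_at at -0.49 (adjusted p = 0.0715).

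Dll3 null and Dll3 het embryos were also compared with each other. Of the members 0 of 13 passed by limma and 0% of all probe sets fell; unadjusted p-values under 0.05 were found for 0 of 13 members and 5.31% of all probe sets. The log2 differences of the members lay between -0.15 and 0.22. At Hes5 1423146_at the ratios were 1.12 and 1.05 in Dll3 null, against 0.873 and 1.00 in Dll3 het, a difference of 0.22 with a 95% interval of -0.05 to 0.48. That interval leaves out a fall in Dll3 null of the size seen between Notch1 null and wild type at this probe set, and the same holds at 1456010_x_at, where the interval ran between -0.26 and 0.26.

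The Notch1 null and Dll3 null embryos were compared directly, which is also the difference between their effects against the shared wild type arrays. Lower signal in Notch1 null was found at 5 of 13 member probe sets and higher at 0, where 3.27% of all probe sets were lower. Hes5 was 2.36-fold lower at 1423146_at (log2 -1.24 ± 0.12, adjusted p = 0.0019) and 1.94-fold lower at 1456010_x_at (-0.96 ± 0.12, adjusted p = 0.00433, both by limma). Hes6 1436050_x_at was 1.58-fold lower, Nrarp 1417986_at 1.48-fold and Heyl 1419302_at 1.37-fold, with adjusted p of 0.0121, 0.0326 and 0.0363. Of these 5 calls that of Hes5 1423146_at held whichever 1 array was left out, and the other 4 were lost without Notch1 null replicate 2 (adjusted p between 0.0603 and 0.215). In this comparison the Nrarp probe set that passed was the one on which Dll3 null and wild type overlapped. Further probe sets of these genes did not pass by limma. Hes6 1452021_a_at was at -0.39 (adjusted p = 0.223) and Nrarp 1417985_at at -0.63 (0.117). Heyl was at -0.29 at 1438886_at (0.177) and at -0.07 at 1419303_at (0.852). The dap control was at 5.18 and 2.38 in Notch1 null, against 0.293 and 0.304 in Dll3 null, and its part was not tested. Marker lists moved with the members here too: neural progenitor probe sets were lower in Notch1 null at 5 of 18, neuron at 4 of 19, Id at 3 of 8, proneural at 2 of 13 and somite at 2 of 13. Among them Fabp7 was 2.94-fold and Tubb3 2.41-fold lower, further than Hes5 at either probe set, and the part of the tissue markers was not tested.

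Over the 9 arrays the members did not vary as 1 group. Averaged over probe sets, Hes5 had the widest spread (SD 0.55 on the log2 scale), followed by Nrarp (0.35) and Hes6 (0.34), while Hes1, Hes7, Hey2 and Heyl lay between 0.11 and 0.13 and Hey1 at 0.20. Pearson correlations with Hes5 were 0.924 for Hes6, 0.901 for Nrarp and 0.889 for Heyl, against 0.640 for Hey1, 0.488 for Hes1, 0.06 for Hey2 and -0.33 for Hes7. These describe 9 arrays that share their genotype groups, and Hes6 ranks 142nd, Nrarp 256th and Heyl 335th among 12392 genes by likeness to Hes5. The 5 genes most like Hes5 were Dpysl4 (0.985), Crabp2 (0.984), Rpp25l (0.974), Gpsm1 (0.972) and Tbcb (0.972). Dpysl4, at the top, averaged 0.685 and 0.603 in Notch1 null, against 1.17 and 1.14 in wild type. Probe sets of 1 gene correlated at 0.952 for Hes5, 0.874 for Hes6 and 0.683 for Nrarp. Of the Heyl probe sets, 1419302_at and 1438886_at correlated at 0.80, and 1419303_at with neither of them (0.01 and 0.00).

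Other genes of the pathway were read in Notch1 null against wild type, where 3.46% of all probe sets rose and 5.99% fell. A single riser among 17 or 16 probe sets is near the first share. Among 8 or 4 probe sets it lies above that share, though it is still 1 probe set. Among receptors 1 of 8 probe sets rose, Notch1 1418633_at by 1.63-fold (log2 0.71 ± 0.13, adjusted p = 0.0138 by limma), with Notch2 at 0.36 and Notch3 at 0.45 not passing. Of 9 ligand probe sets 0 passed, Jag1 at -0.39, Dll4 at 0.10 and Jag2 at -0.09 being named by lowest p. Of 5 probe sets of the fringe enzymes, which modify Notch with sugars, 0 passed, with Mfng at -0.47, Rfng at -0.36 and Lfng at -0.33 (adjusted p = 0.0765, 0.0833 and 0.0890). Among 17 probe sets of processing enzymes 1 rose, Adam10, the sheddase that cuts the bound receptor (0.47, adjusted p = 0.0224). Among 9 of nuclear effectors 0 passed, with Spen at 0.44, Rbpj at 0.34 and Snw1 at -0.46. Numb, an inhibitor of Notch, rose at 1 of 16 modulator probe sets (0.51, adjusted p = 0.0397). The Groucho family with Sirt1, among them corepressors that Hes proteins recruit, fell at 2 of 11, Tle1 at -0.83 and the family member Tle5 at -0.72. Of 4 probe sets of further Hes relatives 1 rose, Bhlhe40, a stress- and hypoxia-responsive repressor, by 4.0-fold (adjusted p = 0.000547). Their list medians lay between -0.33 for fringe and 0.24 for receptors, against -0.59 for the Hes, Hey and Nrarp probe sets.

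**Figure D4:**
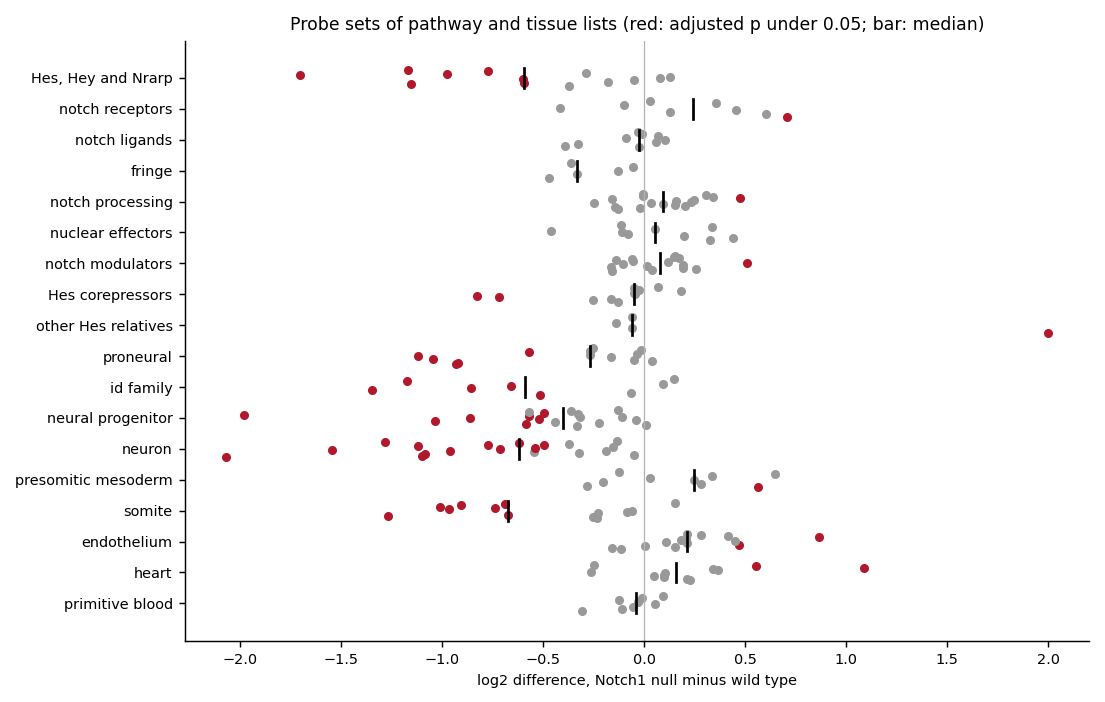
The log2 difference between Notch1 null and wild type (horizontal axis) of every probe set in the member list, 8 pathway lists and 9 lists of related factors and tissue markers, with red for an adjusted p under 0.05 and a bar for the list median. Members, Id genes, neural progenitor, neuron and somite markers carry most of the red points below 0.

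Markers of the neural tube and somites, where several members are known to be expressed, and of other tissues were read in the same comparison. Of all probe sets 5.99% fell and 3.46% rose there. The proneural list, basic helix-loop-helix factors of which some are repressed by Hes proteins, fell at 5 of 13 probe sets and rose at 0. Neurog2 was 2.06-fold, Neurod1 2.17-fold and Olig2, a related factor listed with them, 1.91-fold lower. Id genes, further inhibitors of such factors, fell at 5 of 8, led by Id4 and Id1. Neural progenitor markers fell at 7 of 18, led by Fabp7 (3.95-fold), Sox3 (1.82-fold) and Pou3f3 (2.04-fold), and neuron markers at 12 of 19, led by Stmn2 (2.92-fold), Tubb3 (4.19-fold) and Dcx (2.12-fold). Somite markers fell at 7 of 13, led by Uncx, Pax1 and Pax3, whereas presomitic markers rose at 1 of 9, Cyp26a1 (0.56, adjusted p = 0.0427). Endothelial markers rose at 2 of 14, Kdr and Tek, heart markers at 2 of 12, Myh7 and Myh6, and primitive blood markers passed at 0 of 8. The medians were -0.27 for proneural, -0.59 for Id, -0.40 for neural progenitor, -0.62 for neuron and -0.67 for somite probe sets, against -0.03 for all. In Dll3 null against wild type only 1 probe set of these lists passed, Dcx of the neuron list at -0.97 (adjusted p = 0.0403), so proneural and Id lists had 0 there.

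The neural lists are set beside the members array by array. The mean log2 ratio of neural progenitor probe sets was -0.40 and -0.43 in Notch1 null, -0.16 in Notch1 het, 0.06 and 0.09 in Dll3 null, 0.11 and 0.10 in Dll3 het, and 0.11 and 0.05 in wild type. That of neuron probe sets was -0.42 and -0.39 in Notch1 null, -0.29 in Notch1 het, 0.08 and -0.09 in Dll3 null, -0.01 and 0.11 in Dll3 het, and 0.38 and 0.29 in wild type. Both lists were lowest in the Notch1 arrays, as Hes5 and Hes6 were, and the neuron list, like Hes5, was highest in wild type. In Notch1 null against wild type Tubb3 (log2 -2.07), Fabp7 (-1.98) and Stmn2 (-1.55) fell about as far as Hes5 (-1.70 and -1.17) or further. The share of neural cells in these embryos was not measured, and its part in the members' falls was not tested.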

How the data were processed

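Each array held labelled cRNA made from total RNA of whole embryos, per the labels' protocols. The deposited values are linear ratios: RMA (background correction, normalization and probe summary) is named without a version in the submitters' processing notes, and no source used here describes the later division. The median over 9 arrays equals 1 for 19847 (87.5%) of 22690 probe sets, falls short of it by more than a rounding tolerance of 0.002 for 2824, and exceeds it for 0. Dividing removes levels but keeps folds between arrays. No depth applies to arrays, and their small number limits the precision.

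After 64 control probe sets were set aside, log2 ratios (no pseudocount, no filter on low values) of 22626 probe sets were fitted by lmFit and eBayes (limma 3.58.1, R 4.3.3). Each genotype had its own mean, leaving 4 residual and 5.42 prior degrees of freedom. The Benjamini-Hochberg adjustment ran separately for the 7 comparisons, and errors are standard errors of that fit unless called SD. The procedure was tested on simulated data. Of the probe sets 20380 carry 1 symbol, 691 several and 1555 none; only the first were named. In Notch1 null against wild type, genes outside the 8 members were named by a rule: up to 3 of lowest p per list among those that passed. For receptors, ligands, fringe and nuclear effectors they were named also where none passed. The 5 genes most correlated with Hes5 were named too. List genes named in the other comparisons did not follow this rule and were chosen after their values were seen. The 8 members, the 17 lists and the tests were chosen with earlier results of these data known. Which background shares to print was chosen after these values were seen. The 11 alternatives cover scaling, the arrays in the fit, replicate number and embryo sex as terms, variance and weighting options, averaging per gene, leaving out probe sets with a median below 1, and leaving out each array. Not all of them are separate checks. A group of 1 array adds nothing to the estimated spread, so leaving out Notch1 het cannot change comparisons between other groups. For the same reason both smaller sets of arrays give the same fit of Notch1 null against wild type.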

Additional observations from a re-analysis of the deposited data

Results flagged for a closer look

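The effect of Notch1 loss and of Dll3 loss, each against the same wild type arrays, differed at 5 of 13 member probe sets, tested directly as Notch1 null minus Dll3 null with limma. For Hes5 the difference was -1.241 ± 0.1183 on the log2 scale at 1423146_at (adjusted p = 0.001897) and -0.9586 ± 0.1159 at 1456010_x_at (adjusted p = 0.004334). For Hes6 1436050_x_at it was -0.6634 ± 0.1084 (adjusted p = 0.01212). For Heyl 1419302_at it was -0.4566 ± 0.1044 (adjusted p = 0.03628), and for Nrarp 1417986_at it was -0.5614 ± 0.125 (adjusted p = 0.03259).

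Leaving out arrays ended several of these calls. The second Hes5 call was lost without Notch1 null replicate 2 (adjusted p = 0.0603), and the Hes6 call without Notch1 null replicate 1 (0.0665), Notch1 null replicate 2 (0.0843) or Dll3 null replicate 1 (0.0716). Heyl lost its call in 11 alternatives (adjusted p up to 0.215) and Nrarp in 8 (up to 0.192). The first Hes5 call was lost only when the fit held just the arrays of both groups (0.0506).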

How the results depend on the processing

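Of the calls in Notch1 null against wild type, those of both Hes5 probe sets and of Hes6 1436050_x_at held in all 19 alternatives, and no called member changed direction in any. The count of 7 member probe sets became 3 (genes) when probe sets were averaged per gene, and lay between 3 and 7 when 1 array was left out. In Notch1 het against wild type the count of 2 became 0 with only the arrays of both groups, 1 with only wild type and Notch1 arrays, 0 with embryo sex in the fit, 1 averaged per gene, 3 with array weights or without the probe sets whose median lies below 1 (Hes6 1436050_x_at was gained), and 0 to 2 without 1 array. In Dll3 het against wild type the count of 1 became 0 under quantile normalization, with only the arrays of both groups, with a replicate block, with embryo sex, with array weights and averaged per gene, and lay between 0 and 1 without 1 array. In Notch1 null against Notch1 het the count of 1 became 0 under quantile normalization, with either smaller set of arrays, with a replicate block, with embryo sex, averaged per gene, and without any 1 array. In Notch1 null against Dll3 null the count of 5 became 3 under quantile normalization, 0 with only the arrays of both groups, 3 averaged per gene, and 1 to 5 without 1 array. Both remaining Dll3 comparisons gave 0 in all alternatives. Member values past the threshold in neither the reported fit nor the alternative changed sign 5, 3, 6, 6, 7, 16 and 3 times over the 7 comparisons, in the order Notch1 null, Notch1 het, Dll3 null and Dll3 het against wild type, Notch1 null against Notch1 het, Dll3 null against Dll3 het and Notch1 null against Dll3 null. The causes were not tested, beyond the fewer arrays in the smaller fits.

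Over the whole table, 2139 probe sets changed in Notch1 null against wild type (306 to 2524 over the alternatives), 624 in Notch1 het (0 to 650), 20 in Dll3 null (0 to 49), 110 in Dll3 het (0 to 197), 403 in Notch1 null against Notch1 het (0 to 476), 0 in Dll3 null against Dll3 het (0 to 17) and 1298 in Notch1 null against Dll3 null (9 to 1472).

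Same-numbered replicates did not deviate together: correlations of replicate differences lay between -0.10 and 0.16 over 6 pairs of groups, so the numbers do not pair the samples. The replicate block left 7, 2, 0, 0, 0, 0 and 4 member calls in the 7 comparisons in the same order, the last loss being Heyl (adjusted p = 0.0549).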

Other observations

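Pathway genes also passed in comparisons not described above, and every such probe set of the receptor, ligand, fringe, processing, nuclear effector, corepressor and relative lists is given here, named after its values were seen. In the single Notch1 het array, against wild type, Spen, a corepressor that works with RBPJ, was higher by a log2 difference of 1.23 (adjusted p = 0.0112 by limma) and Notch3 by 1.00 (0.0265), while Snw1, a nuclear cofactor of Notch, was at -1.36 (0.0162) and Psenen, a subunit of gamma-secretase, at -0.61 (0.0497). Set against that array, Notch1 null was lower at Notch3 (-0.87, adjusted p = 0.0485), Spen (-0.79, 0.0428) and Lfng (-0.65, 0.0463) and higher at Bhlhe40 (2.15, 0.00297). These values rest on 1 Notch1 het array, whose own spread is unknown.

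In Notch1 null against Dll3 null, Jag1, a ligand, was at -0.75 (adjusted p = 0.0472 by limma), the corepressor Tle3 at -0.57 (0.0167), Spen at 0.54 (0.0388), both Notch1 probe sets at 0.94 and 0.96 (0.00763 and 0.0420) and Bhlhe40 at 1.95 (0.000938). Adam10 was higher in Dll3 het than in wild type by 0.77 (0.0283), and it also rose in Notch1 null against wild type.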
